A study of Rattus norvegicus with 16 samples.

Results

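Cultured rat pituitary cells that had been given eNampt for 24 h were compared with cells given IL-6 for 24 h. The comparison was defined by the sample titles alone and used 8 of the 16 arrays of the study, 4 per ligand. The cells came from Wistar rats aged 21 days, whose pituitary glands were dissociated with collagenase. They are labelled isolated corticotropes, and were selected on biotin-binder beads with an antibody to CRHR1 according to the protocol, although the design text names an antibody to CRH. All groups grew in the same medium, DMEM/F12 supplemented with FGF (0.05 µg/l) and 10% serum. The other 8 arrays are 4 of cells given CRH for 24 h and 4 controls, whose titles give no time. They appear below only as levels beside the main comparison, and the CRH arrays also helped to estimate the spread. The sources used here give neither ligand doses nor the origin of the eNampt. They also do not say whether replicates were separate cultures or animals, so each p-value reflects the spread among these arrays alone, which may be technical. The comparison asks where the responses to the 2 cytokine-like ligands differ.

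Nampt is the rate-limiting enzyme of NAD salvage inside cells. Its secreted form, eNampt (also called visfatin), acts on other cells like a cytokine and has been reported to bind the Toll-like receptor Tlr4. Signals from Toll-like receptors free NF-kB dimers from their IkappaB inhibitors, and nuclear NF-kB switches on chemokines, cytokines and, as feedback, the inhibitors themselves. IL-6 uses another route, in which its receptor and the shared subunit Il6st activate JAK kinases and the transcription factor Stat3, with acute-phase genes among the known targets. Corticotropes make Pomc, the precursor of ACTH, and answer to hypothalamic CRH. IL-6 is itself a known stimulus of ACTH release.

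Values are deposited log2 expression levels, so a difference of 1 is a doubling. Array medians lay between 1.82 and 2.02, and values near 2 are therefore dim. The 90th percentile of an array was 5.22 to 5.45 after eNampt and 5.07 to 5.41 after IL-6. Against the label, Pomc was bright (7.86 to 8.50 after eNampt, 7.99 to 8.31 after IL-6), but Tbx19 and Neurod1, transcription factors of the corticotrope lineage, were below the array medians on all 8 arrays apart from 1 value of 2.03 for Tbx19 on IL-6 array 4. Genes of other cells were bright too: the prolactin gene Prl (10.12 to 10.94), the glycoprotein hormone subunit gene Cga (7.24 to 8.39) and the smooth muscle gene Tagln (10.01 to 10.45). The arrays thus hold RNA of several cell types. In such bulk samples fewer cells of a type and less RNA per cell cannot be told apart.

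Cells given eNampt had more mRNA of Csf2, which encodes the growth factor GM-CSF, and of Pla2g2a, a secreted phospholipase that frees fatty acids from membranes, than cells given IL-6. These were the 2 genes of 14557 (0.0137%) called at an adjusted p under 0.05 (limma, Benjamini-Hochberg over all genes), and both were higher after eNampt. No gene was called higher after IL-6. Without adjustment, 295 genes (2.03%) had a p under 0.05 toward eNampt and 232 (1.59%) toward IL-6. Together these are 527 genes (3.62%), a smaller share than the 0.05 that chance alone would give. All 4 arrays of one ligand lay above all 4 of the other for 410 genes (2.82%). They were 187 genes (1.28%) in favour of eNampt and 223 (1.53%) in favour of IL-6. Chance alone would give a share of 0.0286, the smallest two-sided p of an exact permutation test over the 70 splits of the arrays. Neither total exceeded its chance share, so belonging to either count is by itself no evidence of a ligand difference. Differences over 1 on the log2 scale were found for 208 genes (1.43%) toward eNampt and 75 (0.515%) toward IL-6, and the median difference of all genes was -0.0149.

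Csf2 measured 3.73, 3.96, 3.58 and 3.87 on the eNampt arrays and 1.57, 2.11, 1.67 and 1.79 on the IL-6 arrays. The groups were far apart, and the IL-6 arrays lay near the array median. The difference was 2.00 ± 0.15 (SE, n = 4 and 4), a 4.00-fold rise with an adjusted p of 0.000508 (limma). Csf2 measured 2.04 to 2.28 on the CRH arrays and 1.28 to 3.27 on the controls, so that every eNampt array was above every other array. Fitted with the control arrays as well, its adjusted p was 0.063.

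Pla2g2a measured 5.75, 5.96, 3.94 and 5.30 after eNampt and 2.39, 2.07, 2.52 and 1.85 after IL-6. The third eNampt array was the lowest of its group but still above every IL-6 array. The difference was 3.03 ± 0.37 (SE), 8.15-fold, with an adjusted p of 0.0335 (limma). It was called in 8 of 18 alternative analyses, its adjusted p reached 0.266, and the call was lost when any 1 IL-6 array was left out. CRH (2.14 to 2.66) and control arrays (2.11 to 2.61) were at the IL-6 level.

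**Figure D1:**
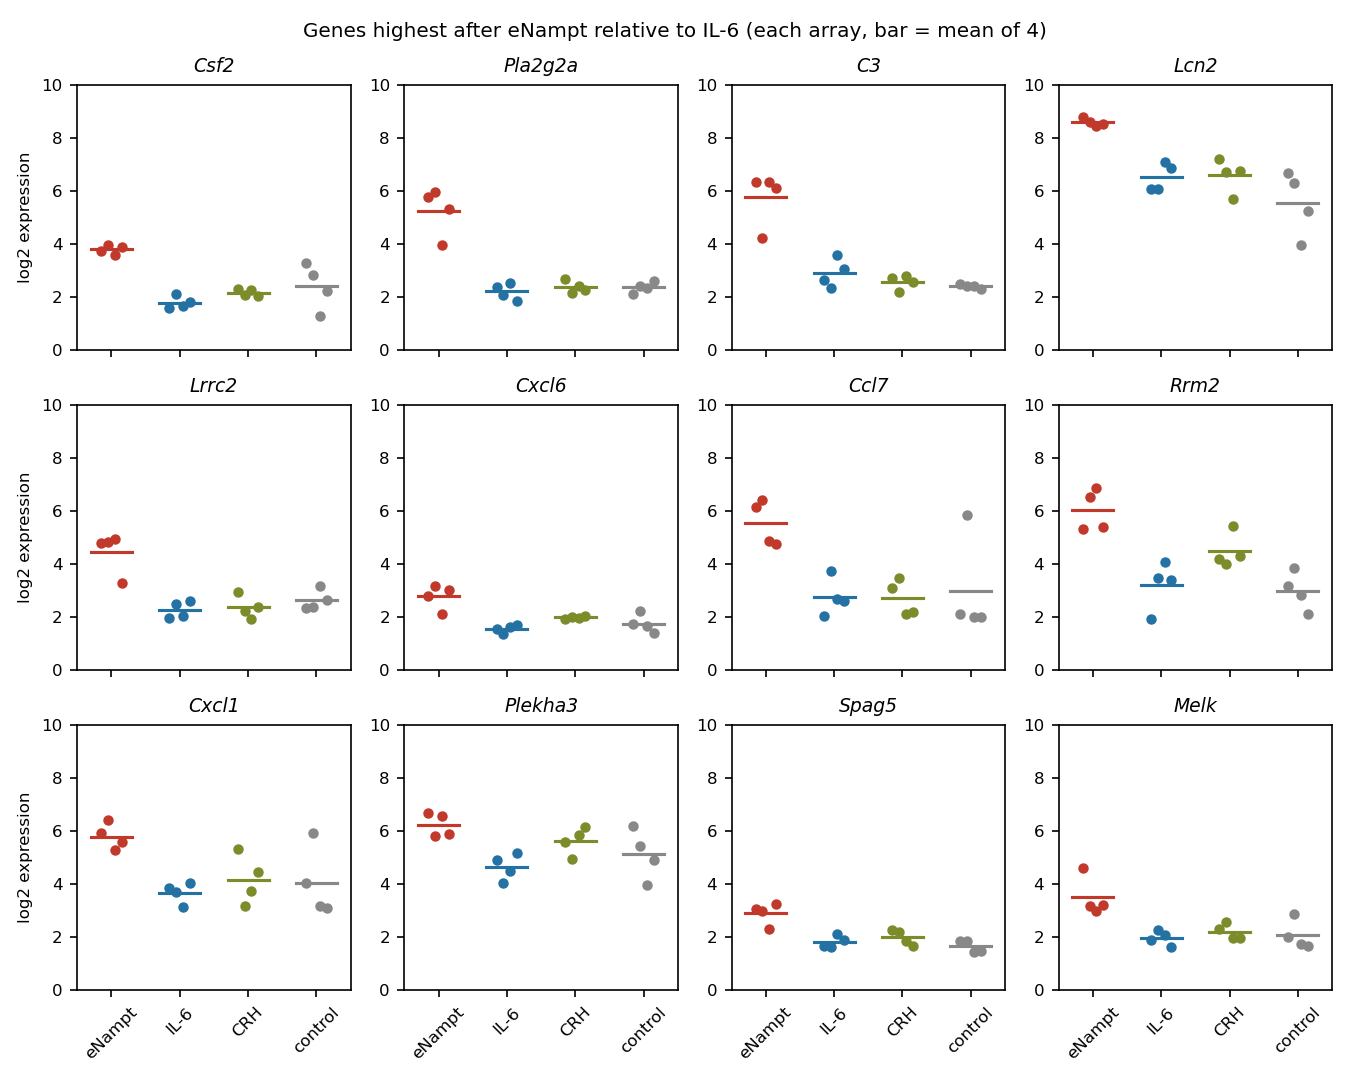
Log2 expression of the 12 genes named as higher after eNampt, one panel per gene, with a point for each array of the 4 groups and a bar at the group mean. In each panel the 4 eNampt points lie above the 4 IL-6 points, Csf2 and Pla2g2a being the 2 genes called.

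The other genes with the strongest evidence toward eNampt were mostly inflammatory effectors and genes of dividing cells, and none passed the adjusted threshold. Lrrc2, with 4.78, 4.83, 4.94 and 3.26 against 1.98, 2.47, 2.03 and 2.58, and Plekha3, a Golgi lipid-binding protein, with 5.80 to 6.67 against 4.04 to 5.15, belong to neither set and were separated too. For Plekha3, CRH arrays 3 (5.83) and 4 (6.14) and control array 1 (6.18) were inside the eNampt range. C3, the central complement protein, measured 6.33, 4.24, 6.35 and 6.08 after eNampt and 2.64, 2.33, 3.59 and 3.05 after IL-6. The second eNampt array was far below its group, yet the groups did not overlap. The difference was 2.85 ± 0.44 (SE), with an adjusted p of 0.137 (limma). It became 0.00198 without that array, the lowest of its group, whose removal widens the difference by construction. C3 was called in 2 of 18 alternative analyses, and its adjusted p reached 0.495.

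Lcn2, a siderophore-binding acute-phase protein, was the brightest of these genes, at 8.79, 8.59, 8.45 and 8.53 after eNampt against 6.07, 6.08, 7.08 and 6.87 after IL-6. The eNampt arrays were tightly grouped and the IL-6 arrays formed a lower, wider group. The difference was 2.07 ± 0.32 (SE), 4.19-fold, adjusted p = 0.137. Ptgs2, the inducible cyclooxygenase that starts prostaglandin synthesis, measured 6.33 to 7.47 against 5.07 to 6.12. Sod2, the mitochondrial superoxide dismutase, measured 5.88 to 6.50 against 4.25 to 5.49. Neither gene's groups overlapped, with differences of 1.49 and 1.25 and adjusted p of 1 and 0.970. For Ptgs2, control array 2 was higher still, at 7.65. Nos2, the inducible nitric oxide synthase, was dim (2.20 to 2.52 against 1.90 to 2.18). Icam1, an adhesion molecule, overlapped fully at 4.31 to 5.05 against 4.14 to 5.60.

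Several chemokines were separated as well. Ccl2, which attracts monocytes, measured 6.96, 7.76, 5.54 and 6.29 after eNampt and 3.29, 4.13, 3.39 and 2.82 after IL-6. Its lowest eNampt array was above its highest IL-6 array. Of all genes Ccl2 had the largest difference, 3.23 ± 0.71 (SE), 9.37-fold, but its spread left the adjusted p at 0.567. Ccl7, another monocyte attractant, measured 6.14, 6.40, 4.87 and 4.76 against 2.04, 3.72, 2.69 and 2.60. The first and second eNampt arrays were higher than the other two for both genes, and control array 2 reached 5.84 for Ccl7.

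Cxcl1, a neutrophil attractant, measured 5.90, 6.39, 5.27 and 5.57 after eNampt and 3.83, 3.70, 3.11 and 4.04 after IL-6. Cxcl6, which acts on the same cells, was dimmer, at 2.77, 3.18, 2.10 and 3.03 against 1.54, 1.37, 1.61 and 1.71. The groups did not overlap for either, and the adjusted p were 0.431 and 0.198. Control array 2 was inside the eNampt range for both, at 5.91 for Cxcl1 and 2.23 for Cxcl6. For Cxcl1, CRH array 1 was inside it too, at 5.31. Ccl20, chosen after its values were seen, was separated as well, at 5.19 to 6.66 against 4.07 to 5.16. The interferon-induced chemokines overlapped between the ligands: Cxcl10 measured 1.54 to 2.05 against 1.44 to 2.41, and Cxcl9 0.90 to 1.77 against 1.18 to 1.56. Ccl5 overlapped too, at 2.72 to 3.78 against 2.94 to 3.77.

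The promoters of Cxcl1, Cxcl6 and Lcn2 are shown because they are the 3 of the 12 genes named toward eNampt whose RefSeq promoter holds a match to the kappaB consensus, and that of Nfkbia because it encodes the NF-kB inhibitor. Sequences are from RefSeq on GRCr8, run 5′ to 3′ on the gene's strand from 250 bases before to 50 after the start, and carry the kappaB match in capitals. All 4 genes lie on the minus strand: Cxcl1 at chr14:17479272-17479571, Cxcl6 at chr14:17596368-17596667, Lcn2 at chr3:36081731-36082030 and Nfkbia at chr6:78597023-78597322.
Cxcl1: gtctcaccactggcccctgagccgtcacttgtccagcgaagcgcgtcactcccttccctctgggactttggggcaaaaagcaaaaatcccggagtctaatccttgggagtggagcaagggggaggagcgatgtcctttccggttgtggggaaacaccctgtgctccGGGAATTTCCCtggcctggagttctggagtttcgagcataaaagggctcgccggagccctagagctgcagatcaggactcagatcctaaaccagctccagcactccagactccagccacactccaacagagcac
Cxcl6: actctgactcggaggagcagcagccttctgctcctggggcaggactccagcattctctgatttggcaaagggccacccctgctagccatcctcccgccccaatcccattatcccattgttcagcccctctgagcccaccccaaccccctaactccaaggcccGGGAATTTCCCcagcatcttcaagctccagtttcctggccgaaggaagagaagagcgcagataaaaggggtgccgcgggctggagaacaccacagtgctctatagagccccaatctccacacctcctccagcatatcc
Lcn2: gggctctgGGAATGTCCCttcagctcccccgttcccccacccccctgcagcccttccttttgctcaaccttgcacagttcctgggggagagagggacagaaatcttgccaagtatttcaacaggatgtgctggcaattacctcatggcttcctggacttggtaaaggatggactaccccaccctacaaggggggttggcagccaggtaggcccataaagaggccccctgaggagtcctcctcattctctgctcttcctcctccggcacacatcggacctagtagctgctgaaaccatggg
Nfkbia: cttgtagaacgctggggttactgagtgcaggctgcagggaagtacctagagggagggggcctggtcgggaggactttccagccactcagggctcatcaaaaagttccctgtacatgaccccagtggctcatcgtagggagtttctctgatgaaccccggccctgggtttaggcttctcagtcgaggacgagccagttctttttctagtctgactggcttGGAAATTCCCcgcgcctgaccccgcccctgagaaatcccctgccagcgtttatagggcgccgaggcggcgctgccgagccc

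In Cxcl1 and Cxcl6 the same 11 letters, holding overlapping matches, begin at positions -84 and -88 relative to the start, and in Nfkbia the match begins at -31. In Lcn2 it lies near the far edge of the window, at -242. On both strands, the kappaB consensus was found in 1142 of 27457 RefSeq promoters (4.16%), in 3 of the 11 matched genes named toward eNampt (27.3%) and in 1 of the 10 named toward IL-6 (10.0%). In the gene lists it was found in 6 of 10 chemokines (60.0%), in 7 of 12 NF-kB subunits and inhibitors (58.3%), in 3 of 12 effectors and in 1 of 11 cytokines (9.09%). These lists were made of known NF-kB components and targets. Matches among them can follow from that choice, whatever the arrays show. The STAT motif TTCNNNGAA was found in 8.68% of all promoters, in 2 of the 11 named toward eNampt and in 0 of the 10 named toward IL-6. In the lists it was found in 3 of 10 chemokines (30.0%), 2 of 12 subunits and inhibitors (16.7%), 1 of 12 effectors (8.33%) and 1 of 11 cytokines (9.09%). Of 16 promoters of IL-6 and acute-phase targets, 2 held the STAT motif (12.5%) and 3 the kappaB consensus (18.8%). A match describes letters in this window and is neither a binding site nor a cause, and no promoter of Csf2 or other genes is judged by its absence.

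Lists of genes known as NF-kB components or targets were measured in 4 parts. These and the other lists below were written with earlier results of these data known. Their counts beside the background therefore describe the lists and are no independent support. Of 14 chemokines, 11 were higher after eNampt and 3 after IL-6, 6 of the former at an unadjusted p under 0.05 (background 2.03% of genes) and 5 without overlap (background 1.28%), with a median difference of 0.71. Of 16 effectors, 13 were higher after eNampt, 9 at an unadjusted p under 0.05 and 6 without overlap, with a median of 0.644. Of 15 cytokines and growth factors, 12 were higher, 6 at an unadjusted p under 0.05 and 3 without overlap, with a median of 0.378. Of 15 subunits and feedback inhibitors, 11 were higher, 3 at an unadjusted p under 0.05 and 2 without overlap, with a median of 0.124. Together these are 60 genes, of which 47 were higher after eNampt, 24 at an unadjusted p under 0.05 and 16 without overlap. None of the 13 others reached an unadjusted p under 0.05 or separated toward IL-6. The median of all 60 was 0.48, against -0.0149 for all genes, of which 47.5% were higher after eNampt, and Csf2 and Pla2g2a were the only members called.

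The mean of the 16 effectors was 3.98, 3.91, 3.88 and 3.79 on the eNampt arrays and 2.90, 3.08, 2.88 and 3.04 on the IL-6 arrays. The 14 chemokines averaged 3.86, 4.15, 3.49 and 3.30 against 2.80, 2.84, 2.64 and 2.74. Both lists were separated between the ligands on every array, and within eNampt the chemokines were higher on arrays 1 and 2. The cytokines averaged 3.37 to 3.86 against 2.73 to 3.01. The subunits and feedback inhibitors overlapped, at 3.55 to 3.92 against 3.15 to 3.56. On control array 2 the chemokines (3.42) and cytokines (3.38) averaged inside the eNampt range, and the subunits and inhibitors (3.96) above it. The effectors averaged 2.57 to 3.25 on the controls, below every eNampt array.

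Among the cytokines, Il6 itself measured 6.88, 6.29, 6.18 and 5.26 after eNampt and 4.75, 4.75, 4.87 and 3.74 after IL-6. The groups did not overlap, and array 4 was the lowest of each. The difference was 1.62 ± 0.66 (SE), with an adjusted p of 1. For Il6, control array 1 (5.95) and CRH array 1 (5.60) were inside the eNampt range. Il1a measured 2.51, 5.51, 3.81 and 3.04 against 2.25, 2.38, 1.83 and 2.05 without overlap, array 2 being the highest eNampt array. Control arrays 2 (3.97) and 4 (3.29) were inside the eNampt range for Il1a. Csf1, the macrophage growth factor, measured 6.66 to 7.54 against 5.93 to 6.69 and just overlapped. Tnf stayed near the array median, at 1.74 to 2.12 against 1.47 to 2.29.

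Of the feedback genes, Nfkbia, which encodes the inhibitor IkappaB alpha, measured 6.47, 6.55, 5.96 and 6.34 after eNampt and 5.53, 5.20, 5.48 and 5.56 after IL-6. The groups were separate by a small margin. The difference was 0.89 ± 0.27 (SE), with an adjusted p of 1. Relb, a subunit of the alternative NF-kB dimer, measured 4.83 to 5.39 against 3.32 to 4.30, also without overlap. CRH array 1 was higher still for Relb, at 5.66. Birc3, an inhibitor of apoptosis, measured 4.15, 5.86, 3.15 and 4.22 against 2.59, 3.45, 3.24 and 2.63, and eNampt array 3 was inside the IL-6 range. The subunits Rela (5.26 to 6.27 against 5.13 to 6.32) and Nfkb1 (3.71 to 4.91 against 2.89 to 4.15) overlapped. Exact two-sided permutation tests over the 70 splits of the 8 arrays gave p = 0.0286 for Nfkbia, C3, Pla2g2a, Lcn2, Ccl2, Il6 and Rrm2, which is the smallest p that 4 against 4 arrays can give. It was 0.049 after Benjamini-Hochberg adjustment over the 12 genes so tested. Any gene without overlap gets this p, so it adds nothing to the separation already given. The genes tested were chosen with earlier results of these data known.

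**Figure D2:**
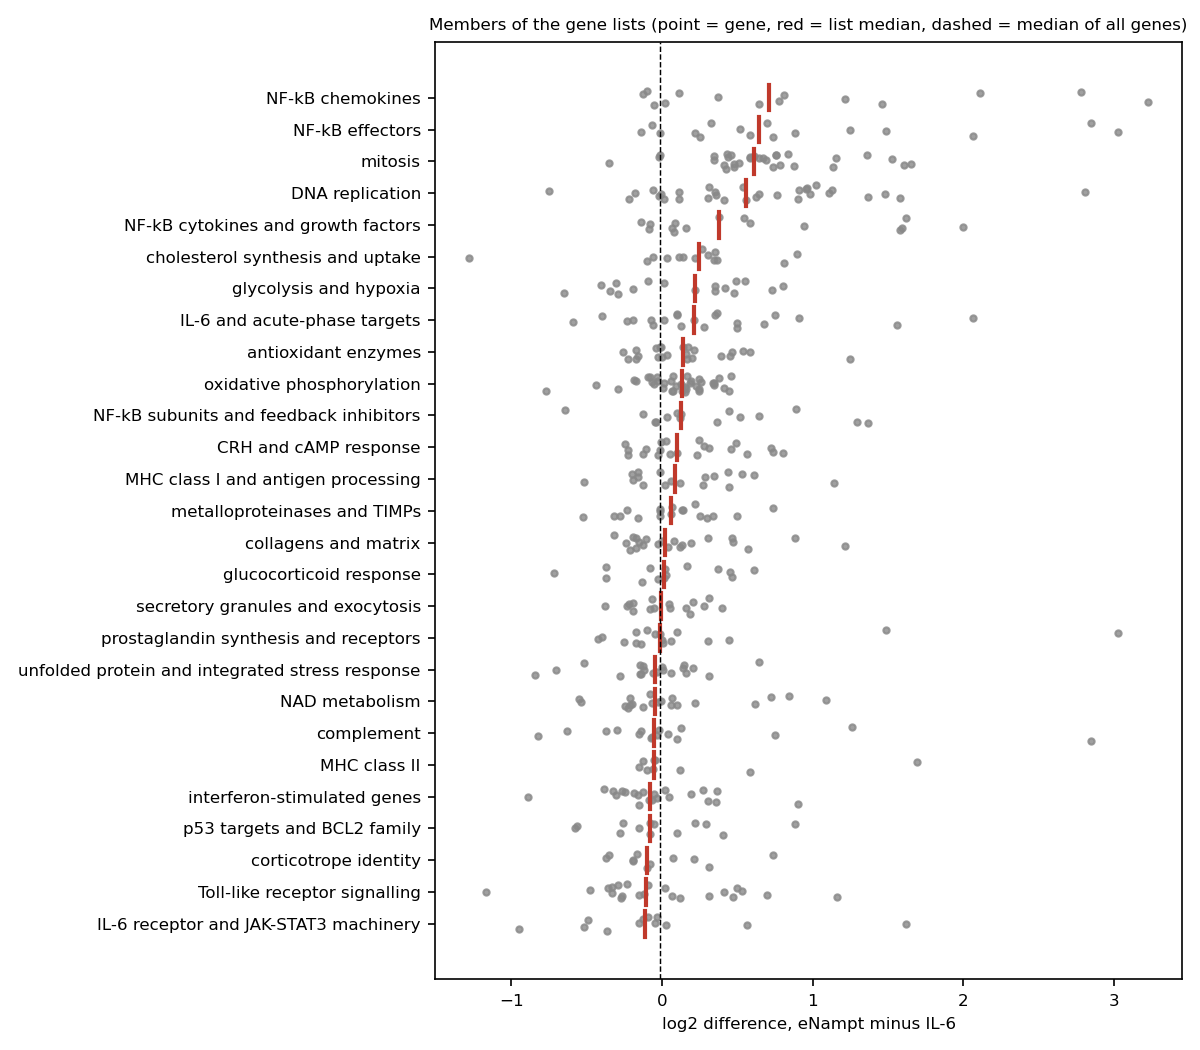
Log2 difference, eNampt minus IL-6, of each measured member of 27 gene lists, with the list median in red and the median of all genes (-0.0149) as a dashed line. The chemokines (median 0.71), effectors (0.644), mitosis (0.611) and DNA replication (0.56) lists have the highest medians, and the IL-6 receptor and JAK-STAT3 list (-0.11) the lowest.

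The receptor side did not show that shift. In the Toll-like receptor list 10 of 22 genes were higher after eNampt and 12 after IL-6. Of these, 3 and 1 had an unadjusted p under 0.05 (background 2.03% and 1.59% of genes). The list median was -0.108 and changed sign in some alternatives. Tlr4, the receptor eNampt has been reported to bind, was dim in both groups (1.44 to 1.87 against 1.54 to 2.01, exact p = 0.286). Cd14, its co-receptor for endotoxin, measured 5.32, 4.76, 3.74 and 4.49 against 3.52, 3.11, 3.60 and 3.42. The groups did not overlap, but control array 1 was higher still, at 6.23. Tlr2 measured 2.23 to 3.27 against 1.73 to 2.34, and the adaptor gene Tirap 2.04 to 4.05 against 2.82 to 4.69.

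The genes of the IL-6 route were not raised on the IL-6 arrays relative to eNampt by any adjusted test. In the receptor and JAK-STAT3 list 3 of 12 genes were higher after eNampt and 9 after IL-6, with a median of -0.11. An unadjusted p under 0.05 was reached by 1 each way (background 2.03% and 1.59% of genes). Jak1, the kinase bound to Il6st, measured 5.61, 4.16, 6.19 and 6.21 after eNampt and 6.38, 6.68, 6.57 and 6.36 after IL-6. The groups did not overlap, but eNampt array 4 (6.21) was just below the lowest IL-6 array. Its difference was -0.95, with an adjusted p of 1. Stat3 (5.98, 6.05, 6.38 and 6.95 after eNampt, up to 6.91 after IL-6, exact p = 0.800) and Il6r (2.16 to 3.67 against 2.17 to 3.62, exact p = 0.857) overlapped fully.

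Of the targets of IL-6 and acute-phase genes, 15 of 21 were higher after eNampt, where 47.5% of all genes were, with a median of 0.212. Toward eNampt, 4 of the 21 had an unadjusted p under 0.05 (background 2.03% of genes) and 3 were separated (background 1.28%). Toward IL-6, 1 was separated (background 1.53%). Lcn2 is one of these and belongs to the effector list too. Cp, the copper-carrying ferroxidase ceruloplasmin, measured 5.22, 4.87, 5.70 and 5.13 against 3.11, 4.12, 3.46 and 3.98. All eNampt arrays were above all IL-6 arrays, with a difference of 1.56 and an adjusted p of 1. Osmr, the oncostatin M receptor gene, chosen after its values were seen, measured 6.41 to 7.31 against 5.72 to 6.28. Il1rn, the gene of the IL-1 receptor antagonist, was the member separated toward IL-6, but only barely and between dim values (1.53 to 1.63 against 1.63 to 2.12). Hp, haptoglobin, was bright on a single array of each group, at 4.47 on eNampt array 2 and 5.65 on IL-6 array 1, and 1.52 to 2.01 on the other 6.

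Genes of proliferating cells also lay toward eNampt. Of 31 DNA replication genes 25 were higher after eNampt, where 47.5% of all genes were, with a median of 0.56. Of the 25, 6 had an unadjusted p under 0.05 (background 2.03% of genes) and 5 did not overlap (background 1.28%). Of 31 mitosis genes 28 were higher, 6 at an unadjusted p under 0.05 and 5 without overlap, with a median of 0.611. None of the 62 was called and none reached an unadjusted p under 0.05 toward IL-6. Of the 62, 59 were above the median of all values. Among all genes above that median, 71.3% of those at an unadjusted p under 0.05 were higher after eNampt. The mitosis list averaged 4.79, 4.83, 4.68 and 4.72 on the eNampt arrays and 3.99, 4.21, 4.03 and 4.10 on the IL-6 arrays. The replication list averaged 4.06, 4.17, 4.14 and 4.08 against 3.13, 3.46, 3.65 and 3.75, and its lowest array, IL-6 array 1, was also the one with the lowest 90th percentile (5.07). The part of that array's narrower signal in the result was not tested. On control array 2 the replication list averaged 4.08, inside the eNampt range.

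Rrm2, the small subunit of ribonucleotide reductase that supplies deoxynucleotides, measured 5.29, 6.51, 6.87 and 5.38 after eNampt and 1.94, 3.46, 4.05 and 3.39 after IL-6. The lowest eNampt array was above the highest IL-6 array, and the CRH arrays, at 3.98 to 5.43, overlapped both groups. The difference was 2.81 ± 0.51 (SE), 6.99-fold, adjusted p = 0.236. Rrm1, the large subunit of the same enzyme, varied widely in both groups (1.93 to 6.28 against 3.97 to 6.69). Pcna, the sliding clamp of DNA polymerase, measured 5.50 to 6.08 against 3.80 to 5.17, and Mcm6, a subunit of the replicative helicase, 4.09 to 5.51 against 3.46 to 3.78.

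Of the mitotic genes, Melk, a kinase of dividing cells, measured 4.61, 3.16, 2.97 and 3.22 after eNampt against 1.87, 2.28, 2.06 and 1.64 after IL-6. Spag5, a spindle protein, measured 3.04, 2.98, 2.28 and 3.25 against 1.65, 1.62, 2.10 and 1.90. Both were separated from dim IL-6 values, with differences of 1.53 and 1.07 and adjusted p of 0.526 and 0.507. Dlgap5, another spindle protein, measured 5.21 to 6.37 against 3.08 to 4.69. The mitotic kinase Plk1, at 6.52 to 7.45 against 6.01 to 6.53, overlapped only at its lowest eNampt value. Cdk1, the kinase that starts mitosis, chosen after its values were seen, measured 6.43 to 6.90 against 5.64 to 6.14.

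**Figure D3:**
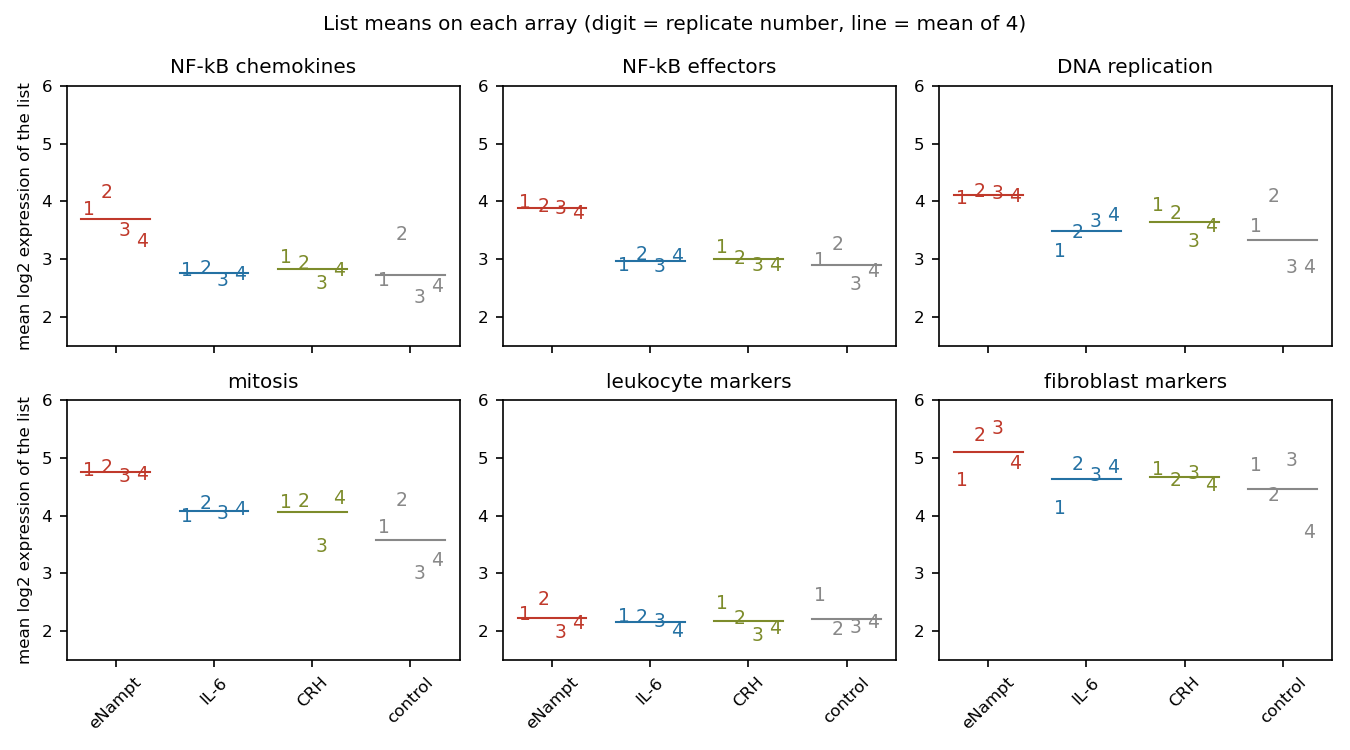
Mean log2 expression of 6 gene lists on each array, with digits for replicate numbers and a line at the mean of each group of 4. The chemokine, effector, replication and mitosis means are higher on every eNampt array than on every IL-6 array, while the leukocyte and fibroblast marker means overlap.

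Markers of other cells were read beside these lists. Of 11 leukocyte markers 5 were higher after eNampt and 6 lower, and their mean was 1.97 to 2.55 on the eNampt arrays and 2.00 to 2.25 on the IL-6 arrays. An unadjusted p under 0.05 was reached by 2 toward eNampt and 1 toward IL-6 (background 2.03% and 1.59% of genes). Cd14, described above, was the 1 leukocyte marker without overlap (background 1.28% toward eNampt), at 3.74 to 5.32 against 3.11 to 3.60. The pan-leukocyte gene Ptprc (1.29 to 1.76 over the 8 arrays) and the T cell gene Cd3e (1.13 to 1.63) were below the array medians. Csf1r, the receptor of macrophages, measured 1.21 to 1.82 against 1.60 to 2.79, and Cd68, a macrophage lysosomal protein, 1.59 to 3.11 against 1.18 to 1.77. Of 7 fibroblast markers 4 were higher after eNampt and 3 lower, and their mean was 4.61 to 5.51 against 4.12 to 4.88. Pdgfra, a growth factor receptor of fibroblasts, was the separated member, at 1.92, 3.71, 5.28 and 2.03 against 1.65, 1.74, 1.73 and 1.40. Its high eNampt arrays were arrays 2 and 3, which were also the highest of the group for the fibroblast mean, the replication mean and Rrm2. The replication mean differed little within the group (4.06 to 4.17). Arrays 1 and 2 were highest for the mitosis, chemokine and effector means and for Ccl2 and Pla2g2a, while C3 was lowest on array 2 (4.24). The part of leukocytes and fibroblasts in the results was not tested.

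The genes named toward IL-6 have varied known roles, and none was called. Ackr4, an atypical receptor that clears chemokines, measured 5.90, 4.49, 4.92 and 5.00 after eNampt and 6.80, 6.91, 6.77 and 6.41 after IL-6. The groups did not overlap, and the CRH arrays were at 6.98 to 7.39. The control arrays measured 5.24, 7.39, 6.31 and 5.47, from inside the eNampt range to above the IL-6 range. The eNampt minus IL-6 difference was -1.64 ± 0.26 (SE), 3.13-fold lower after eNampt, adjusted p = 0.137. Without eNampt array 1 its adjusted p was 0.00716 (limma). That array was the nearest of its group to the IL-6 range, and its removal widens the difference by construction. Ackr4 was called in 1 of 18 alternative analyses, and its adjusted p reached 0.695. The same gene was called between eNampt and CRH (difference -2.15, adjusted p = 0.0271), a comparison that shares the eNampt arrays.

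Trim13, a ubiquitin ligase of the endoplasmic reticulum, measured 1.86, 1.39, 1.62 and 2.35 after eNampt and 3.57, 4.18, 4.58 and 3.02 after IL-6. It was dim on the CRH (1.31 to 2.44) and control arrays (1.24 to 2.15) too, so the IL-6 arrays stood apart from the other 3 groups. The difference was -2.03 ± 0.37 (SE), adjusted p = 0.236. Gnat1, known as the transducin subunit of rod photoreceptors, showed the same layout, at 2.10 to 3.73 after IL-6 and 1.03 to 1.90 on the other 12 arrays. Shc3, a signalling adaptor, measured 2.35, 5.47, 4.33 and 3.84 after IL-6 against 1.80 to 2.61 after eNampt, and its first IL-6 array was inside the eNampt range. Tmem241 measured 5.05, 1.94, 2.76 and 3.35 against 1.19 to 1.90, so that its IL-6 arrays differed more from each other than its group means did.

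Of the other 7 genes named toward IL-6, Map3k12, a kinase upstream of JNK, measured 3.75 to 5.32 after IL-6 against 2.68 to 3.40. Gtf2h3, a subunit of the general transcription factor TFIIH, measured 3.14 to 4.14 against 2.29 to 3.05, and Vps33b, of endosomal sorting, 3.63 to 4.55 against 2.65 to 3.82. Gpd1, the cytosolic glycerol-3-phosphate dehydrogenase, measured 2.36 to 2.85 against 1.56 to 2.02. Kif13a, Ptbp2 and Slc26a2 differed by -0.78, -0.62 and -0.65. Apart from Vps33b these 7 did not overlap, and their adjusted p ran from 0.489 to 1.

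**Figure D4:**
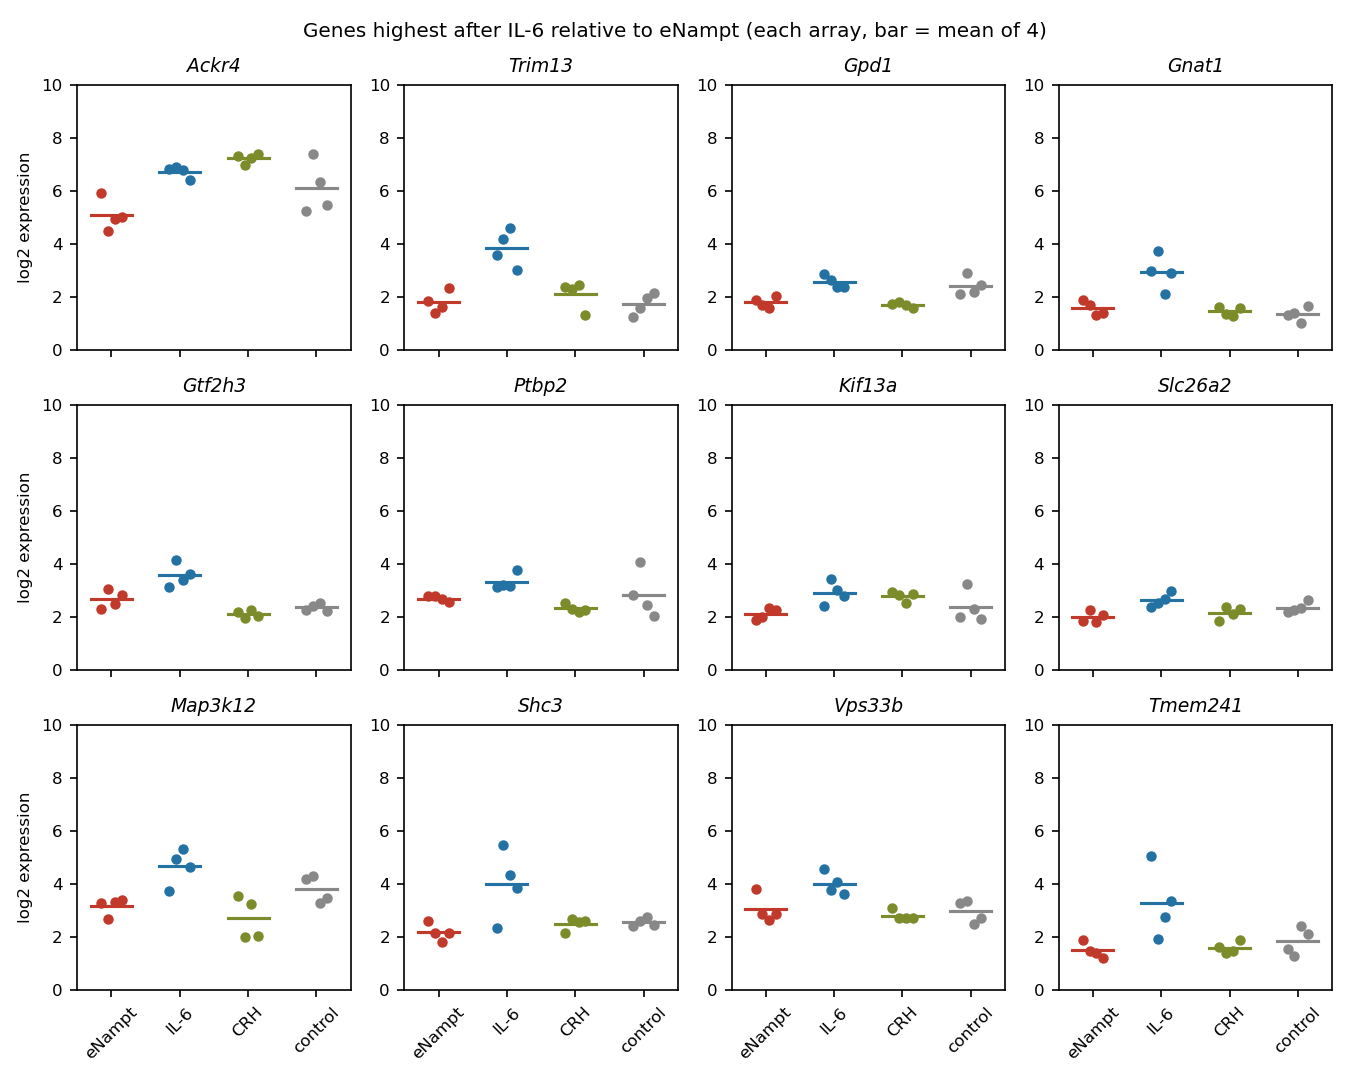
Log2 expression of the 12 genes named as higher after IL-6, one panel per gene, with a point for each array of the 4 groups and a bar at the group mean. Ackr4 is the only one with its IL-6 mean above 6, and Trim13 and Gnat1 are dim on all arrays but those given IL-6.

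Corticotrope genes overlapped between the ligands. Pomc measured 8.50, 8.36, 8.30 and 7.86 after eNampt and 7.99, 8.19, 8.31 and 8.24 after IL-6. The groups overlapped, and the difference of 0.07 ± 0.17 (SE) had an exact p of 0.657. In the corticotrope identity list 4 of 11 genes were higher after eNampt and 7 after IL-6, with 0 at an unadjusted p under 0.05 and a median of -0.10. Of 21 CRH and cAMP response genes 13 were higher after eNampt, 3 at an unadjusted p under 0.05 (background 2.03%) and 0 without overlap (background 1.28%). Nr4a2, an orphan receptor that acts on the Pomc promoter, measured 5.50 to 5.90 against 4.93 to 5.72. Nr4a1 measured 4.90 to 6.01 against 3.39 to 5.52, its IL-6 group stretched by a low first array.

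Smaller or mixed differences were seen in other lists, where no further gene was called. Over all genes, 47.5% were higher after eNampt. An unadjusted p under 0.05 was reached by 2.03% toward eNampt and 1.59% toward IL-6, and 1.28% and 1.53% did not overlap. In the cholesterol list 11 of 14 genes were higher after eNampt, 0 at an unadjusted p under 0.05 and 0 without overlap, with a median of 0.244. Of 17 glycolysis and hypoxia genes 10 were higher, 1 at an unadjusted p under 0.05, with a median of 0.219 that ranged from -0.00997 to 0.418 over the alternatives. Of 22 interferon-stimulated genes 8 were higher after eNampt and 14 after IL-6, 0 at an unadjusted p under 0.05, with a median of -0.0766. Complement as a whole was split, with 6 of 16 genes higher after eNampt and 10 after IL-6, C3 and the inhibitor gene Serping1 being the 2 at an unadjusted p under 0.05. C1qa, a macrophage-made subunit of C1q, was separated the other way, but only barely (1.84 to 2.42 against 2.46 to 3.60, unadjusted p = 0.078, limma). Of 20 NAD metabolism genes 8 were higher after eNampt, and Sirt5, a mitochondrial NAD-dependent deacylase, measured 4.86, 5.04, 5.19 and 3.95 against 3.28, 3.47, 3.71 and 4.23. Array 4 of the eNampt group fell inside the IL-6 range. Of 38 oxidative phosphorylation genes 27 were higher after eNampt with 0 at an unadjusted p under 0.05, and the list median of 0.132 was as low as -0.0392 among the alternatives. Of 9 MHC class II genes 3 were higher, and Cd74, the invariant chain, measured 7.23, 5.20, 6.19 and 6.68 against 5.23, 3.95, 4.55 and 4.80.

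The CRH arrays give another level for the same genes. The median of the 60 NF-kB genes was 0.498 for eNampt minus CRH and 0.0453 for CRH minus IL-6. For the 62 replication and mitosis genes these medians were 0.582 and 0.00588. The 3 comparisons share arrays, so these values are given side by side and do not support each other. Between eNampt and CRH 3 of 14557 genes (0.0206%) were called, namely Ackr4, Csf2 and Pla2g2a, and 741 (5.09%) had an unadjusted p under 0.05. Between CRH and IL-6 none was called in limma, where 628 genes (4.31%) had an unadjusted p under 0.05 and the smallest adjusted p was 0.337. Both unadjusted counts lie near the share of 0.05 that chance alone would give.

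**Figure D5:**
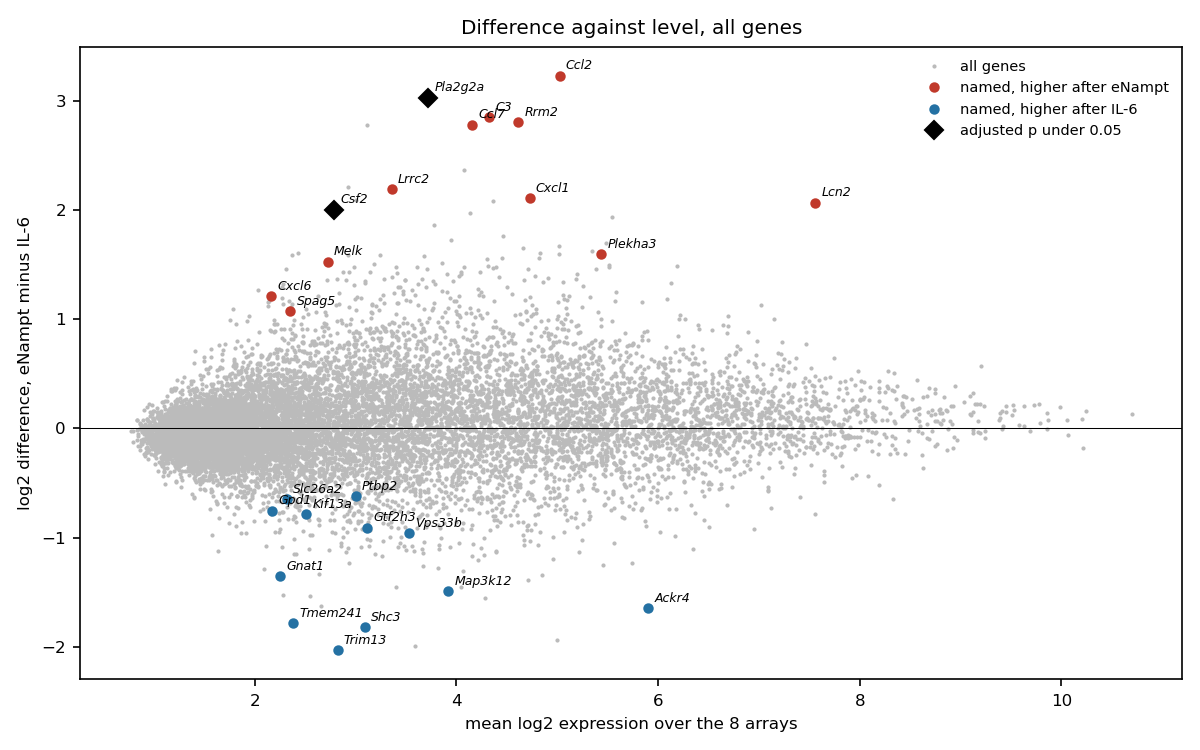
Log2 difference, eNampt minus IL-6, against mean log2 expression over the 8 arrays for all 14557 genes, with the named genes coloured and the 2 called genes as diamonds. Csf2 lies at a difference of 2.00, Pla2g2a at 3.03 and Ccl2 at 3.23, while the named genes toward IL-6 reach -2.03 (Trim13).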

How the data were processed

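The study holds 16 Affymetrix arrays of total RNA (5 ng, Pico kit per the labels' protocols). The authors deposited a single table that gives each probe set a log2 value. Per the submitters' processing notes, RMA was used. The RMA version, genome build and probe set level are not given in the sources used. Array signals of dim probe sets are compressed, so their folds are understated. Of 36685 probe sets, 14824 had a single gene symbol, 829 several and 21032 none in the annotation used here, and 14670 were named through Entrez identifiers. The brightest probe set of each of the 234 genes with several was used, giving 14557 genes with no filter on dim values.

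Groups came from the titles. limma 3.58.1 in R 4.3.3 fitted 1 mean per ligand to the 12 ligand arrays (9 residual and 2.3 prior degrees of freedom, median residual SD 0.376, median SE of a difference 0.257), without control arrays, with two-sided moderated tests and Benjamini-Hochberg adjustment. The number of arrays limits the precision. The fit was tested on simulated data. Named genes were the called genes, then those of largest moderated t up to 12 each way, up to 4 of each of 27 pathway lists, the brightest of 13 marker lists, and 16 genes that are always named. For this ranking a gene's mean had to exceed the median of all values, and predicted loci, small RNA and sensory receptor genes were left out. The text describes a part of these, together with some further list members, chosen with their values known. The members, lists and tests were chosen with earlier results of these data known. Of those 16, Crhr1, Il6st, Socs3 and Nampt have no value here. Alternatives changed the arrays fitted, scaling, probe sets, filter, variance model and replicate block, and left out each array.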

Additional observations from a re-analysis of the deposited data

Results flagged for a closer look

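For the genes that the text may name, 216 groups of 4 arrays were examined. In 16 of them 1 array stood so far from the nearest of the others, relative to the group's range, that it passed Dixon's critical value, which chance alone does in about 1 of 20 groups. On the eNampt arrays, C3 was low on array 2 (4.24, others 6.08 to 6.35) and Lrrc2 low on array 4 (3.26, others 4.78 to 4.94). Melk was high on array 1 (4.61, others 2.97 to 3.22). Array 2 was also low for Mmp9 (4.23, others 4.75 to 4.82) and Map3k12 (2.68, others 3.29 to 3.40) and high for Hp (4.47), and array 3 was low for Creb1 (5.09, others 6.18 to 6.36).

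On the IL-6 arrays, Il6 was low on array 4 (3.74, others 4.75 to 4.87), Mcm6 low on array 2 (3.46, others 3.75 to 3.78) and Cdk1 low on array 3 (5.64, others 6.07 to 6.14). Nr4a1 (3.39, others 5.21 to 5.52) and Col1a2 (6.06, others 7.60 to 7.87) were low on array 1, where Hp was high (5.65). Ptbp2 (3.76, others 3.11 to 3.20) and Gbp5 (2.33, others 1.59 to 1.70) were high on array 4, and Gh1 was low on array 2 (5.19, others 5.78 to 5.83). The causes of these single values were not tested.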

How the results depend on the processing

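With 4 arrays a side the calls are few and sensitive. Csf2 was called in 17 of 18 alternatives (adjusted p 0.000186 to 0.063) and Pla2g2a in 8 (0.000258 to 0.266). The 2 calls became 1 when only the 8 arrays were fitted, with all probe sets and with a replicate block, and 1 to 4 when an array was left out. Fitting all 16 arrays called C3 and Pla2g2a in place of Csf2. Without eNampt array 1 Ackr4 joined Csf2, without array 2 C3, without array 3 Cxcl6, Hbq1 and Pla2g2a, and without array 4 Lrrc2, and without any 1 IL-6 array Csf2 alone was called, the cause of which was not tested. The 527 genes at an unadjusted p under 0.05 became 303 among the 8705 genes above the median of all values and 1295 over all probe sets, where fewer or more features were tested. The 410 without overlap became 230 and 974, and 757 to 878 when an array was left out, which 3 arrays against 4 raise by construction.

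The share of genes at an unadjusted p under 0.05 that were higher after eNampt was 56.0%, and 73.7% with arrays centred on their medians, 71.3% among genes above the median and 42.9% over all probe sets. The share of genes without overlap that were higher after eNampt was 45.6%, and 68.9%, 68.7% and 34.6% in those settings, and 62.0% with quantile normalization repeated. The direction of the bulk of genes therefore depends on the scaling.

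The differences of 16 named genes, all small or resting on 1 array, changed sign. Leaving out 1 array moved Stat3 from -0.179 to 0.225, Il6r from -0.392 to 0.159, Cga from -0.245 to 0.141, Pomc from -0.00699 to 0.204, Prl from -0.0446 to 0.246 and Col1a2 from -0.586 to 0.019. It moved Cxcl10 from -0.0966 to 0.227, Cxcl9 from -0.222 to 0.0672, Ccl5 from -0.259 to 0.0995, Tnf from -0.0295 to 0.244, Icam1 from -0.259 to 0.228 and Rela from -0.22 to 0.257. It moved Rrm1 from -1.27 to 0.179, Hp from -1.1 to 0.572, Ptprc from -0.105 to 0.0772 and Cd3e from -0.0217 to 0.128. With array weights the signs of Stat3 (-0.00956), Il6r (0.0207), Cga (0.00215), Cxcl10 (-0.103), Icam1 (0.00595) and Rela (-0.00647) changed. With quantile normalization repeated those of Stat3 (-0.063), Cxcl9 (0.00127), Rela (-0.0544) and Ptprc (0.0355) changed, and with arrays centred on their medians that of Ptprc (0.031). The titles number the arrays but do not say whether equal numbers belong together. Deviations of equally numbered arrays correlated at 0.148, -0.172, 0.00554 and 0.0663, which cannot settle it. The replicate block left 555 genes at an unadjusted p under 0.05 and Csf2 as the only call. The medians of the 4 NF-kB lists and of the replication and mitosis lists stayed above 0 in all 18 alternatives, from 0.0863 to 1.21.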
